A study of Homo sapiens with 9 samples.

Results

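Transcript levels in cells given the higher dose of cigarette smoke condensate were compared with those in cells given vehicle. The comparison took the 3 arrays labelled 250 µg/ml and the 3 labelled vehicle control, 6 of the 9 arrays in the series, over every probe set that the platform annotation gives exactly 1 gene. That rule kept 14378 of 17629 probe sets, which measure 14207 genes. The other 3 arrays, from cells given 100 µg/ml, entered the estimate of the spread and are set beside the results where they help.

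All arrays came from ARPE-19, an established line of human retinal pigment epithelial cells. In all groups the cells were grown to confluence with serum and then kept in medium with 1% bovine serum albumin. The condensate was a commercial preparation of standard research cigarettes, dissolved in DMSO at 40 mg/ml with 6% nicotine and then diluted in culture medium. The labels call the same agent both condensate and extract. They give no length of treatment and do not say what the vehicle held. They number the arrays 1 to 3 in each group without saying that each came from its own culture. The p-values then measure the spread between these samples and nothing wider, and that spread may be technical.

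The retinal pigment epithelium lies behind the photoreceptors, feeds them, recycles their visual pigment and clears their shed membrane. It is a tissue of high oxygen tension, and smoking is a known risk factor for its degeneration. Smoke condensate carries oxidants and electrophiles, which release the transcription factor NRF2 from its inhibitor KEAP1, and polycyclic aromatic compounds, which bind the aryl hydrocarbon receptor (AHR). NRF2 drives genes of glutathione synthesis, NADPH supply and haem breakdown, and AHR drives cytochrome P450 genes. Proteins that misfold in the endoplasmic reticulum (ER) set off the unfolded protein response, which raises ER chaperones and the machinery that glycosylates or degrades secretory proteins.

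Values are log2 summaries of each probe set as deposited, so 1 unit is a 2-fold difference. RMA, the summary method named, can compress the differences of dim genes. A level cannot be compared between genes on this scale, and only differences between arrays are read here. In a pool of cells, fewer cells of a kind and less RNA per cell cannot be told apart. Of 13 measured markers of this epithelium, RPE65, the visual cycle isomerase, BEST1 and TTR lay below the lower quartile of the array on all 6 arrays. The other 10, among them the keratins KRT8 and KRT18, the factors OTX2 and MITF, the pigment genes TYRP1 and PMEL and the visual cycle gene LRAT, did not lie below it on every array. RLBP1, another visual cycle gene of these 10, exceeded it on vehicle replicate 3 only and lay below it on the other arrays compared. RPE65 read 2.65 to 2.69 on vehicle and 2.36 to 2.38 on treated arrays (limma adjusted p = 0.17). Presence or absence of a marker cannot be read from such a position, since no detection calls were used. Of 7 measured fibroblast markers 3 lay below the quartile on all 6 arrays, as did 4 of 6 endothelial, 2 of 5 leukocyte and 2 of 5 photoreceptor or neuron markers, and 0 markers of any list passed the threshold. The mean level of the fibroblast markers ran from 3.62 to 4.32 on vehicle and from 3.49 to 3.73 on treated arrays. Among them COL1A1 read 6.55 on vehicle replicate 2 against 3.69 and 3.56 on the other vehicle arrays. PDGFRB, of the same list, read 8.30, 8.41 and 6.88 on vehicle and 6.24, 6.57 and 7.81 on treated arrays. Photoreceptor or neuron markers had means of 4.24 to 4.34 on vehicle and 3.95 to 4.10 on treated arrays. SYT1 had the largest difference among these markers, −0.84, and the others lay between −0.23 and 0.07. For the epithelial markers the means were 5.34 to 5.74 on vehicle and 5.07 to 5.36 on treated arrays. They were 3.01 to 3.09 and 2.95 to 3.01 for endothelial, and 4.19 to 4.51 and 4.23 to 4.24 for leukocyte markers.

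The vehicle arrays differed among themselves more than the treated arrays did. Per gene, the SD had a median of 0.21 among the 3 vehicle arrays and 0.16 among the 3 treated arrays. Vehicle replicate 2 stood apart, lying over 2 log2 units from the middle of the 3 vehicle values in 43 genes, 23 of them above and 20 below it, against 7 genes for vehicle replicate 1 and 1 for vehicle replicate 3. AMTN, which encodes the enamel matrix protein amelotin, read 9.90 on that array and 3.08 and 3.50 on the other two. HEPH, the copper ferroxidase hephaestin, read 7.36 there and 2.58 and 2.55 on the others, while CP, the related ferroxidase ceruloplasmin, read 2.83 there against 7.18 and 8.28. None of the 51 genes with such a value on a vehicle array was among the genes called below. Such a value widens the SE of its gene, so these genes could hardly pass. Their absence does not show that vehicle replicate 2 left the calls untouched.

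At an adjusted p of 0.05, the threshold at which a gene is called here, 55 genes rose and 23 fell, 0.549% of the 14207 tested (0.387% rising and 0.162% falling; limma with Benjamini-Hochberg adjustment over all genes). At least 2-fold were 36 of the rises and 15 of the falls, and 9 rises and 4 falls were at least 4-fold. In all 78 genes the 3 treated arrays lay wholly above or wholly below the 3 vehicle arrays, as they did in 22.9% of all genes. The smallest gap between groups was 0.38 log2 units, and in 23 genes it exceeded 1 unit. Among the rises, 32 had their lowest treated value on replicate 3, 20 on replicate 1 and 3 on replicate 2. Treated replicate 3 was likewise the highest treated array in 16 of the 23 falls, so it lay nearest the vehicle arrays in more called genes than either of the others.

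**Figure D1:**
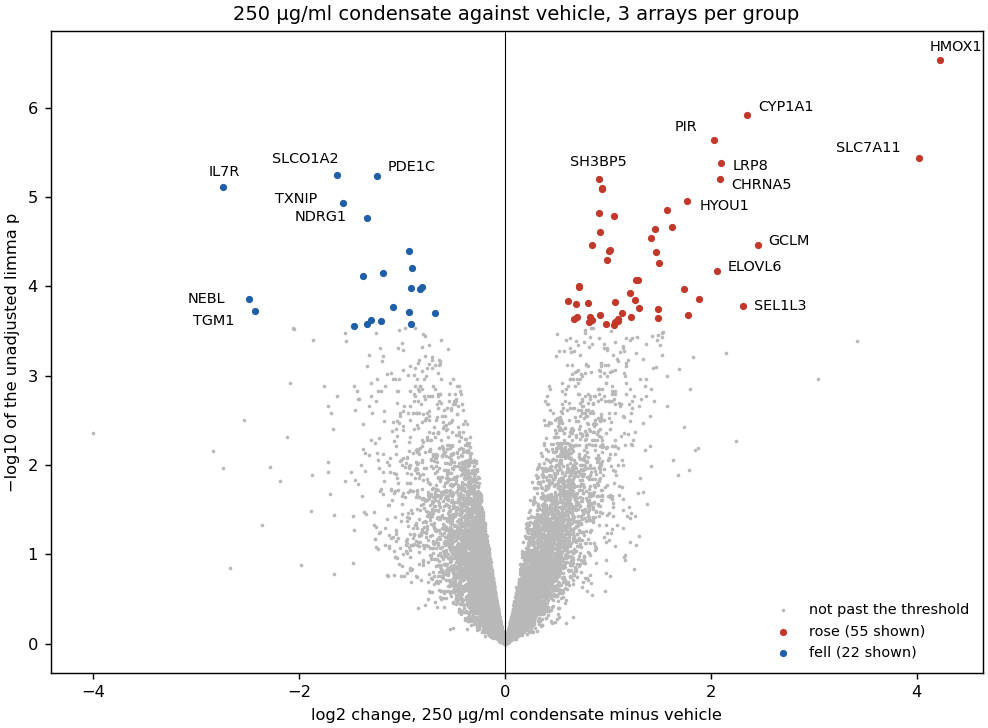
Each point is 1 gene, placed by its log2 change (250 µg/ml minus vehicle, 3 arrays per group) and by −log10 of its unadjusted limma p. Red points rose and blue points fell at an adjusted p of 0.05, and 1 fallen gene is not drawn. HMOX1 and SLC7A11 stand farthest to the right at 4.23 and 4.02, IL7R lies farthest left among the called genes shown at −2.74, and several grey points have large changes without passing.

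The number of genes called depended on single arrays. It was 4 without treated replicate 2, with HMOX1, CYP1A1 and PIR among them, and 19 without treated replicate 1. Without treated replicate 3 it was 102, of which 52 were among the 78. Leaving out vehicle replicate 1, 2 or 3 gave 78, 54 or 296 genes, of which 40, 31 and 74 were among the 78. A fit on the 6 arrays of the comparison alone called 1 gene, HMOX1. Quantile normalization gave 65 rises and 64 falls, and centring each array on its median gave 82 and 71, so the excess of rises over falls was smaller under both. Each of the 78 genes kept its direction, with an unadjusted p under 0.05, in all 13 settings tried. These genes were picked by a lower p on the same arrays, so this was nearly fixed in advance and lends them no further weight. In the reported limma fit alone, an unadjusted p under 0.05 was found in 16.6% of all genes, 8.74% higher and 7.9% lower.

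**Figure D2:**
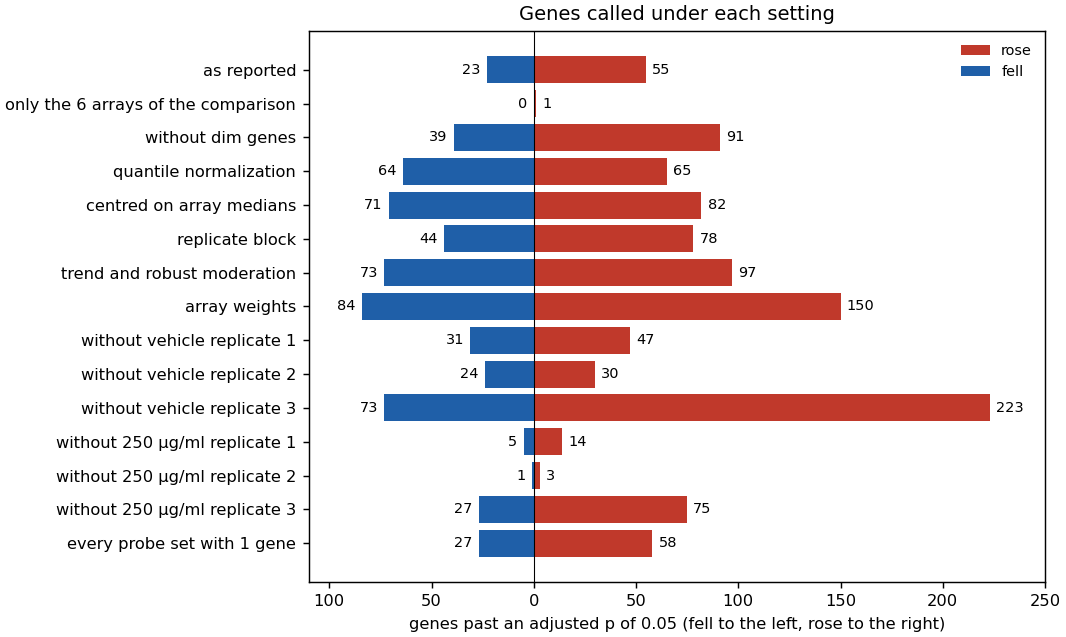
Bars count the genes past an adjusted p of 0.05 under each setting, rises to the right in red and falls to the left in blue, on a linear axis that starts at 0 in the middle. The reported setting gave 55 and 23, the 6 arrays alone gave 1 and 0, and leaving out vehicle replicate 3 gave 223 and 73.

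The 3 largest rises all belonged to the NRF2 targets. HMOX1 encodes haem oxygenase 1, which breaks haem down to biliverdin, iron and carbon monoxide. It read 6.26, 6.53 and 6.38 on the vehicle arrays and 10.36, 10.94 and 10.54 on the treated arrays. Every treated array stood well clear of every vehicle array. The rise was 18.7-fold, a log2 change of 4.23 ± 0.29 (SE, 3 arrays per group, adjusted p = 0.0042 in limma), and HMOX1 was the single gene called in 13 of 13 settings.

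SLC7A11, the light chain of the exchanger that imports cystine for glutathione, read 6.33, 5.14 and 6.78 on vehicle and 10.11, 10.16 and 10.03 on treated arrays. The vehicle arrays were scattered and the treated arrays lay close together. Its 16.2-fold rise had an adjusted p of 0.0089, and the log2 change ran from 3.54 to 4.37 over the settings. The heavy chain that carries this transporter to the membrane, SLC3A2, read 9.11, 9.41 and 9.18 against 10.37, 10.25 and 10.11, a rise of 1.01 ± 0.13 (adjusted p = 0.020). Both chains of the exchanger therefore rose.

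Glutamate-cysteine ligase joins cysteine to glutamate in the first step of glutathione synthesis. Its modifier subunit GCLM read 4.88, 5.57 and 5.61 on vehicle arrays and 8.27, 7.82 and 7.33 on treated arrays, a 5.48-fold rise (2.45 ± 0.31, adjusted p = 0.020). Vehicle replicate 1 was the lowest control, and the groups were over 1 unit apart. GCLC, the catalytic subunit, read 6.12, 6.29 and 6.75 against 8.23, 8.09 and 7.29, a difference of 1.49 ± 0.26 that just missed the threshold (adjusted p = 0.052) and passed it in 6 of 13 settings. GSTA4, a glutathione transferase for lipid aldehydes, rose from 4.78, 5.01 and 4.42 to 6.23, 6.22 and 6.13 (1.46 ± 0.17, adjusted p = 0.015). Of 33 measured genes of glutathione synthesis and use, GCLM and GSTA4 rose, 0 fell, and the median difference was 0.06 against −0.04 over all genes tested, or −0.01 without vehicle replicate 1 and 0.25 without vehicle replicate 2.

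PIR encodes pirin, an iron-binding nuclear protein. Its vehicle arrays read 3.79, 3.70 and 4.14 and its treated arrays 5.92, 5.62 and 6.17, a rise of 2.03 ± 0.18 (adjusted p = 0.0081) that was called in 12 of 13 settings. SRXN1, the sulfiredoxin that repairs over-oxidised peroxiredoxins, read 7.28, 7.77 and 7.92 against 9.06, 9.40 and 9.23 and rose by 1.57 ± 0.18 (adjusted p = 0.013). Both genes had their groups more than 1 unit apart. ME1, the cytosolic malic enzyme, and IDH1, the cytosolic isocitrate dehydrogenase, both make NADPH. ME1 read 6.56, 6.33 and 6.46 on vehicle and 8.49, 8.01 and 7.72 on treated arrays (1.62 ± 0.19, adjusted p = 0.015). IDH1 read 6.12, 6.34 and 6.46 against 8.24, 7.76 and 7.41 (1.50 ± 0.20, adjusted p = 0.025). Treated replicate 1 was the highest and replicate 3 the lowest array in both enzymes. Among 19 genes of NADPH supply these 2 rose and 0 fell, with a median of −0.07 (0.11 without vehicle replicate 2), and the mitochondrial malic enzyme ME3 lay at a difference of −1.33 ± 0.25 (adjusted p = 0.058).

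Of 24 NRF2 targets measured, 6 rose and 0 fell, and the median difference was 1.24 log2 units against −0.04 over all genes. In 18 of the 24 every treated array exceeded every vehicle array, against 8.61% of all genes. Members that did not pass included GSR, glutathione reductase, at 1.80 ± 0.39 (adjusted p = 0.079), the ferritin light chain FTL at 1.40 ± 0.34 (0.096) and TXNRD1, thioredoxin reductase 1, at 0.75 ± 0.15 (0.069). The list median ran from 1.01 to 1.37 over the settings. The gene of NRF2 itself was not measured alone, and 9 of its regulators, partners and relatives had a median of −0.03 with 0 past the threshold. At an unadjusted limma p under 0.05, 1 of these was higher and 1 lower, against 8.74% and 7.9% of all genes. TXNIP, which binds and inhibits thioredoxin, fell from 10.42, 10.26 and 10.55 to 9.08, 8.82 and 8.61, a fall of 1.57 (SE 0.17, adjusted p = 0.011). Its vehicle arrays agreed closely, and the drop was seen on every treated array.

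Promoter letters of the called genes were searched for the core of the antioxidant response element, the sequence that NRF2 binds, written TGACNNNGC and sought on both strands. Windows came from RefSeq (GRCh38.p14) and ran from 250 bases before to 50 after a transcript start. Of the risen genes 45 had at least 1 window, and HMOX1, SLC7A11, CHRNA5, CYP1B1 and SLC6A6 were among those without one. The core lay in 14 of 66 windows of risen genes (21.2%), 4 of 34 windows of fallen genes (11.8%) and 14.1% of all 16409 windows of the genes tested. By gene, it was present in 12 of 45 risen genes (26.7%), 4 of 20 fallen genes (20%) and 18.7% of all genes with a window. A match is a description of the letters and not a site shown to be bound. The following stretches, 10 bases to either side of the core in capitals, are printed because they belong to the risen genes of glutathione synthesis, NADPH supply, cystine import and the proteasome, with CDK18 as a fallen gene that holds the same core.
GCLM: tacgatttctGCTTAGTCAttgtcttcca
ME1: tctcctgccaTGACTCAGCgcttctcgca
SLC3A2: cgagggtgggTGACTCAGCgtcctccttc
IDH1: cccctctcgcTGACTCCGCccatcccacg
PSMA4: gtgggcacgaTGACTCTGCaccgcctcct
CDK18: agggccggggGCGGAGTCAacttgtacat

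Each stretch is written 5′ to 3′ on the strand of its gene, and the core of GCLM and CDK18 is read on the opposite strand. The GCLM stretch lies at chr1:93909446-93909474 on the minus strand, with the core beginning at position −34 from the start. The ME1 stretch lies at chr6:83431170-83431198 on the minus strand (position −137) and the SLC3A2 stretch at chr11:62881652-62881680 on the plus strand (position −37). ME1 and SLC3A2 carry the same core of 9 letters in the same orientation. IDH1 lies at chr2:208255196-208255224 on the minus strand (position −143), PSMA4 at chr15:78540650-78540678 on the plus strand (position −126) and CDK18 at chr1:205504538-205504566 on the plus strand (position −121). All are upstream of the annotated start.

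The AHR targets that rose were both cytochrome P450 genes. CYP1A1, which oxidises polycyclic aromatic compounds, read 2.68, 2.66 and 2.65 on vehicle arrays and 4.71, 4.98 and 5.37 on treated arrays. Its vehicle values lay near the bottom of the scale and almost on top of each other, so the 5.10-fold rise (2.35 ± 0.19, adjusted p = 0.0081) starts from a level at which differences may be compressed. CYP1B1, a relative that also acts on oestrogens, read 8.64, 8.37 and 9.09 on vehicle and 10.27 and 10.49 on treated replicates 1 and 2, with replicate 3 higher still, and rose 3.69-fold (1.88 ± 0.29, adjusted p = 0.043). Of 9 measured genes of the AHR axis these 2 rose, 0 fell, and the receptor gene AHR itself read 8.80, 9.19 and 8.92 on vehicle and 8.25, 8.40 and 8.32 on treated arrays (−0.65 ± 0.15, adjusted p = 0.090). The xenobiotic response element core TTGCGTG, which AHR binds with its partner ARNT, lay in 1 of 66 windows of risen genes, in ACP2, and in 1.35% of all windows. CYP1B1 had no window, and letters more than 250 bases before a start were not searched. The search therefore cannot say whether the 2 risen P450 genes hold the element.

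Nicotinic receptors bind the nicotine that the condensate held. CHRNA5, the accessory subunit α5, read 3.93, 4.57 and 4.42 on vehicle and 6.63, 6.35 and 6.20 on treated arrays. The groups were separated by over 1 unit, and the 4.25-fold rise (2.09 ± 0.21, adjusted p = 0.0089) was called in 11 of 13 settings. It was the 1 riser among 12 measured subunits, whose median difference was −0.06. PSMA4, a core proteasome subunit whose gene lies beside CHRNA5 on chromosome 15, rose from 10.30, 10.44 and 10.65 to 11.44, 11.24 and 11.15 (0.81 ± 0.14, adjusted p = 0.049).

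**Figure D3:**
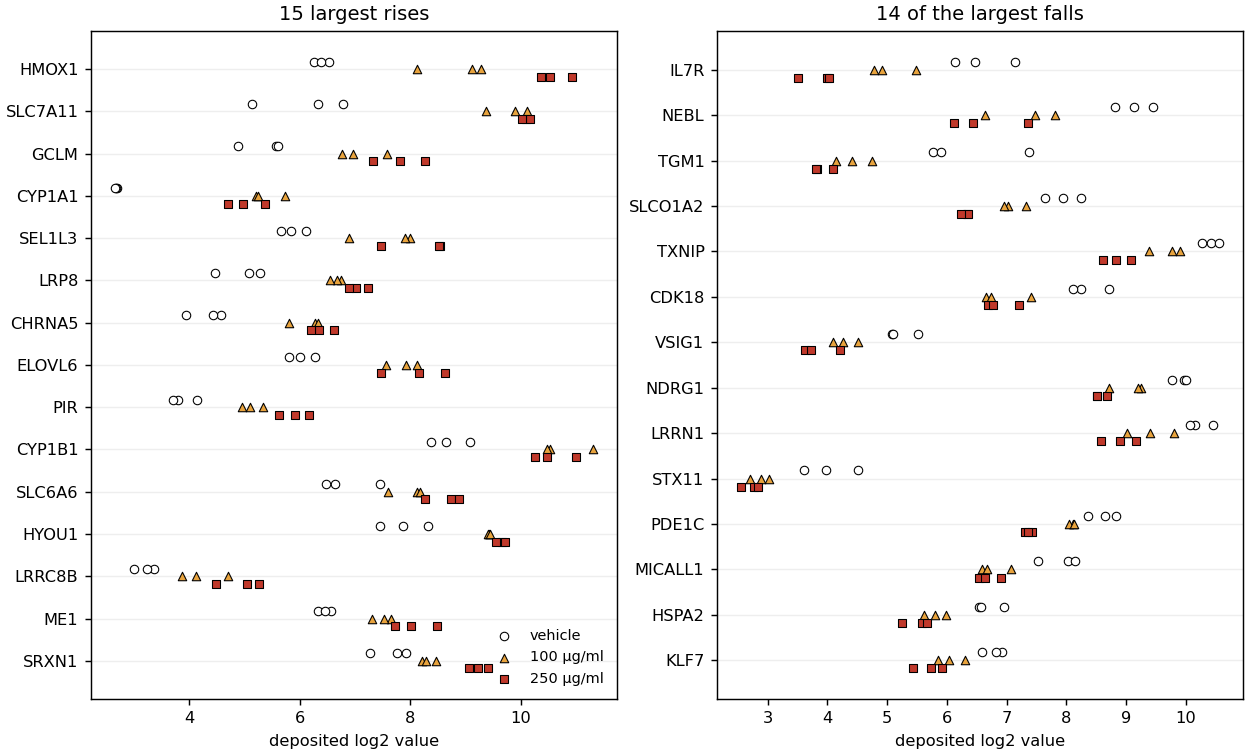
Deposited log2 values of the 15 largest rises (left) and of 14 of the 15 largest falls (right), with 1 symbol per array for vehicle (open circles), 100 µg/ml (triangles) and 250 µg/ml (squares). In every gene drawn the squares lie wholly to one side of the circles, and in CYP1A1 the vehicle circles lie at 2.65 to 2.68.

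ER and secretory pathway genes formed the next group of rises. HYOU1, an ER chaperone of the HSP70 superfamily that exchanges nucleotide on BiP, read 7.45, 8.32 and 7.87 on vehicle arrays and 9.66, 9.72 and 9.56 on treated arrays. The treated arrays lay within a narrow band above all controls, and HYOU1 rose 3.41-fold (1.77 ± 0.19, adjusted p = 0.011). DNAJB11, a co-chaperone of BiP, read 7.59 on vehicle replicates 1 and 3 and 8.0 on replicate 2 against 8.75, 8.73 and 8.69 (0.99 ± 0.13, adjusted p = 0.024). DNAJC3, a BiP co-chaperone that also inhibits the stress kinase PERK, read 6.75, 6.86 and 7.24 against 7.88, 8.19 and 7.95 (1.06 ± 0.18, adjusted p = 0.050). The gene of BiP itself, HSPA5, read 7.86, 8.81 and 7.90 on vehicle and 9.16, 9.22 and 8.76 on treated arrays. Treated replicate 3 lay below vehicle replicate 2, and the difference of 0.86 ± 0.33 did not pass (adjusted p = 0.25).

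Of 33 ER chaperones and folding enzymes, HYOU1, DNAJC3 and DNAJB11 rose and 0 fell, with a median of 0.34 that was 0.17 without vehicle replicate 1 and 0.43 without vehicle replicate 2. Vehicle replicate 1 was the lowest array in this list: its mean over the members, relative to the list's average over all 9 arrays, was −0.57, against −0.04 and −0.18 on the other vehicle arrays and 0.15, 0.24 and 0.06 on the treated arrays. TMX4, a transmembrane thioredoxin of the ER, rose from 6.79, 6.74 and 7.23 to values of 8.0 to 8.49 (1.29 ± 0.18, adjusted p = 0.033). SEL1L3, a relative of the degradation adaptor SEL1L, rose from 5.65, 5.83 and 6.12 to 8.53, 8.53 and 7.48 (2.31 ± 0.36, adjusted p = 0.045), and treated replicate 3 was about 1 unit below the other treated arrays. Of 28 genes of ER-associated degradation and XBP1 targets SEL1L3 was the 1 riser, and the list's median of 0.20 was 0.02 without vehicle replicate 1 and 0.35 without vehicle replicate 2.

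The ER stress element, CCAAT and CCACG separated by 9 bases, lay in 0 windows of called genes and in 0.11% of all windows. At so low a share 0 was the likely outcome, so nothing is concluded. HSPA5 holds the element at chr9:125241381-125241419 (minus strand, beginning at position −66). This stretch is printed, with the element in capitals, because it is the textbook example and its gene did not pass.
HSPA5: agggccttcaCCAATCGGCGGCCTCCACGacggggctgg

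Genes that move and glycosylate secretory proteins were also among the rises. SSR3, a subunit of the translocon-associated complex, rose from 9.24, 8.95 and 9.48 to 11.09, 10.81 and 10.23 (1.49 ± 0.24, adjusted p = 0.049). Of 20 translocon and signal peptidase genes it alone passed, and 17 of the 20 lay above their vehicle mean, with a median of 0.44. Near the threshold were its partner SSR1 at 1.16 ± 0.21 (adjusted p = 0.055) and the signal recognition particle receptor subunits SRPRB at 1.48 ± 0.26 (0.052) and SRPRA at 0.83 ± 0.15 (0.052). In N-glycan assembly DPAGT1, which makes the first lipid-linked sugar, rose from 7.02, 7.12 and 6.65 to 7.74, 7.83 and 7.70 (0.83 ± 0.13, adjusted p = 0.049). MLEC, malectin, a lectin that reads glucose on new N-glycans, rose by 0.94 ± 0.10 (adjusted p = 0.0089), from 8.60, 8.63 and 8.73 to 9.47, 9.72 and 9.58. The 29 N-glycan assembly genes had 1 riser, 0 fallers and a median of 0.37 (0.23 without vehicle replicate 1).

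Nucleotide sugars are made in the cytosol and carried into the ER and Golgi by SLC35 transporters. SLC35B4 rose from 6.46, 5.58 and 5.85 to 7.17, 7.74 and 7.42 (1.48 ± 0.23, adjusted p = 0.046). SLC35D1 rose from 5.73, 5.60 and 6.14 to 7.07, 7.14 and 6.67 (1.14 ± 0.18, adjusted p = 0.048). These were 2 of 17 nucleotide sugar transporters measured, with 0 fallers and a median of 0.24 that was 0.09 without vehicle replicate 1 and 0.36 without vehicle replicate 2. UXS1, which makes UDP-xylose, rose by 0.91 ± 0.10 (adjusted p = 0.013) with vehicle arrays at 6.07, 6.04 and 6.28 and treated arrays at 7.14, 7.01 and 6.95. STIM1, the calcium sensor of the ER membrane, rose by 0.80 ± 0.12 (adjusted p = 0.044), from 5.49 to 5.77 on vehicle arrays to 6.30 to 6.50 on treated arrays. For each of these 4 genes the treated and vehicle arrays were apart, as in all 78 called genes and 22.9% of all genes.

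The transcription factors of the unfolded protein response did not pass. DDIT3, which encodes the pro-apoptotic factor CHOP, read 4.74, 5.77 and 6.35 on vehicle and 3.86, 4.42 and 5.13 on treated arrays, with overlap between the groups (−1.15 ± 0.48, adjusted p = 0.28). Each treated array was below the vehicle array of its number, and with the array number as a replicate block DDIT3 passed (adjusted p = 0.024). That was the 1 of 13 settings in which DDIT3 was called. Deviations of same-numbered vehicle and treated arrays correlated at 0.23, −0.07 and −0.09, so the numbers were not taken to pair them. The result with the block is therefore not read as a paired fall of DDIT3. ATF4 was at −0.10 ± 0.24, ATF3 at −0.56 ± 0.26 and XBP1 at 0.26 ± 0.32, with adjusted p of 0.85, 0.32 and 0.71. The values for XBP1 are of the whole transcript and say nothing of its splicing. Of 27 genes of the ATF4 and CHOP relay SLC7A11 and SLC3A2 rose and TXNIP fell, and the median was 0.02. The C/EBP-ATF element that ATF4 binds, TGATGNAAT, lay in 0 windows of called genes and in 0.664% of all windows. So rare an element can easily be missing from so few windows, and SLC7A11 had no window, so nothing is concluded.

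Transporters of amino acids had 5 rises among 28 measured, with 0 falls and a median of 0.20 (0.08 without vehicle replicate 2). Besides both chains of the cystine exchanger they included SLC6A6, the taurine transporter, which read 7.46, 6.63 and 6.47 on vehicle and 8.73, 8.89 and 8.28 on treated arrays (1.78 ± 0.29, adjusted p = 0.048). SLC1A4, which exchanges alanine, serine and cysteine, rose from 5.08, 4.82 and 4.68 to 5.73, 6.01 and 5.91 (1.02 ± 0.13, adjusted p = 0.020). SLC43A2, a carrier of large neutral amino acids, rose by 1.10 ± 0.18 (adjusted p = 0.049). The related carrier SLC7A5 had a difference of 0.53 ± 0.18 (adjusted p = 0.21). Counted after these values were seen, the 311 measured genes with SLC or SLCO symbols held 8 rises and 1 fall (2.89% called against 0.549% of all genes), while their median of −0.04 equalled that of all genes. The remaining rise was SLC27A4, a fatty acid transporter, at 0.92 ± 0.11 (adjusted p = 0.016).

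Of 14 genes of serine, one-carbon and asparagine synthesis 0 passed, and the median was 0.28. At an unadjusted limma p under 0.05, 4 were higher and 1 lower, against 8.74% and 7.9% of all genes. PSAT1, which makes phosphoserine, read 6.34, 5.70 and 5.69 on vehicle and 9.89, 9.68 and 8.44 on treated arrays, 10.7-fold brighter, with an adjusted p of 0.052. The groups were 2.09 units apart, and treated replicate 3 lay over 1 unit below the other treated arrays. PHGDH, the enzyme before it in the pathway, was at 1.07 ± 0.25 (adjusted p = 0.087) and ASNS, asparagine synthetase, at 1.21 ± 0.46 (0.25). In the list 12 of the 14 genes lay above their vehicle mean.

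Ion channels and antigen transport gave further rises. LRRC8B, a subunit of the volume-regulated anion channel, rose from 3.00, 3.36 and 3.23 to 4.48, 5.26 and 5.05 (1.73 ± 0.26, adjusted p = 0.036). It was the 1 of 5 LRRC8 subunits to pass, and LRRC8A, the subunit the channel requires, was at −0.26 ± 0.33 (adjusted p = 0.72). KCNQ5, a voltage-gated potassium channel, rose by 0.71 ± 0.10 (adjusted p = 0.036). TAP2, which carries peptides into the ER for antigen display, rose from 4.16, 4.11 and 4.32 to 5.50, 5.35 and 4.95 (1.07 ± 0.18, adjusted p = 0.049), and its partner TAP1 was at 1.22 ± 0.29 (0.093). All 3 genes that passed had groups that did not overlap, as in all 78 called genes and 22.9% of all genes.

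In lipid handling LRP8, a receptor for apolipoprotein E and reelin, read 5.27, 4.47 and 5.09 on vehicle and 7.02, 7.24 and 6.88 on treated arrays. The groups were over 1.5 units apart, and LRP8 rose 4.29-fold (2.10 ± 0.20, adjusted p = 0.0089). ELOVL6, which lengthens saturated fatty acids, read 6.01, 5.80 and 6.28 against 8.16, 8.63 and 7.48 and rose 4.16-fold (2.06 ± 0.28, adjusted p = 0.029). Each was the 1 called gene of its list, of 28 genes of sterol synthesis and uptake and of 26 genes of fatty acid synthesis and lipid droplets, whose medians were both 0.04. Without vehicle replicate 2 these medians were 0.26 and 0.23, and they fell below 0 without vehicle replicate 1 (−0.13, sterol genes) or treated replicate 3 (−0.04, fatty acid genes). ACP2, a lysosomal acid phosphatase, rose by 1.30 ± 0.20 (adjusted p = 0.045), while 0 of 50 lysosome and autophagy genes passed and their median was 0.00. Among these GLA, lysosomal α-galactosidase, read 4.56, 5.81 and 6.14 against 7.36, 8.04 and 7.53 (2.14 ± 0.40, adjusted p = 0.056).

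Smaller rises with little spread belonged to several unrelated genes. ALDH5A1, which clears succinic semialdehyde in mitochondria, rose by 0.94 ± 0.10 (adjusted p = 0.0089), from 4.16, 3.91 and 4.07 to 4.95, 5.01 and 5.01. SH3BP5, a mitochondrial anchor of the kinase JNK, rose by 0.91 ± 0.09 (adjusted p = 0.0089), from 4.09, 4.13 and 4.12 to 5.12, 5.04 and 4.92. HSPA12A, a distant HSP70 relative, rose by 1.06 ± 0.12 (adjusted p = 0.013). Each was called in 11 of 13 settings, and the arrays of each group lay close together. EYA4, a transcriptional co-activator and phosphatase, rose by 1.41 ± 0.17 (adjusted p = 0.018) and LEF1, a nuclear partner of β-catenin, by 1.09 ± 0.18 (0.049). Of the rises 27 belong to at least 1 of the 50 lists and 28 to none.

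The falls were led by a cytokine receptor. IL7R, which encodes the α chain of the interleukin 7 receptor, read 6.14, 7.13 and 6.47 on vehicle and 3.52, 3.99 and 4.03 on treated arrays. The highest treated array lay over 2 units below the lowest vehicle array. IL7R was 6.66-fold lower, having fallen by 2.74 (SE 0.28, adjusted p = 0.0089), and was called in 11 of 13 settings. No other of 37 cytokine receptors passed, and their median was 0.01.

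Genes of the cytoskeleton and of epidermal-type differentiation followed. NEBL, whose products bind actin at Z-discs and focal adhesions, read 8.82, 9.44 and 9.13 on vehicle and 6.12, 6.44 and 7.36 on treated arrays. Treated replicate 3 lay nearest to vehicle, and NEBL fell by 2.49 (SE 0.38, adjusted p = 0.043). It was the 1 of 39 genes of integrins and the actin cytoskeleton to pass, but 33 of the 39 lay below their vehicle mean, with a median of −0.34, the lowest of the 50 lists as reported. Without vehicle replicate 1 that median was −0.19. In 15 of them every treated array lay below every vehicle array, against 14.3% of all genes. The laminin receptor subunit ITGB4 (−1.76 ± 0.38, adjusted p = 0.076) and caldesmon, CALD1 (−1.19 ± 0.22, 0.058), were among those that did not pass.

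TGM1, the transglutaminase that crosslinks the keratinocyte envelope, read 5.77, 7.37 and 5.90 on vehicle and 3.83, 3.81 and 4.10 on treated arrays. Vehicle replicate 2 was well above the other controls, and TGM1 fell by 2.43 (SE 0.39, adjusted p = 0.048), or by 1.92 at the least over the settings. Of 27 epidermal-type genes 25 lay below their vehicle mean, and TGM1 was the 1 that passed. KRT13 read 7.98, 5.88 and 8.99 against 5.30, 5.66 and 5.05, with one vehicle array close to the treated arrays (−2.28 ± 0.70, adjusted p = 0.17).

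SLCO1A2, an organic anion transporter, fell from 7.94, 7.64 and 8.24 to 6.33, 6.35 and 6.24, a fall of 1.63 (SE 0.16, adjusted p = 0.0089). PDE1C, a calmodulin-dependent phosphodiesterase, fell from 8.64, 8.36 and 8.82 to 7.32, 7.42 and 7.35, by 1.25 (SE 0.13, adjusted p = 0.0089). In both genes the treated arrays agreed within about 0.1 unit. NDRG1, a gene induced by hypoxia and stress, read 9.76, 9.98 and 10.01 against 8.51, 8.51 and 8.68 and fell by 1.35 (SE 0.16, adjusted p = 0.013). Of 36 glycolysis and hypoxia genes it alone passed, with 26 of the 36 below their vehicle mean and a median of −0.23 (−0.34 without treated replicate 2). VEGFA, the angiogenic growth factor, read 7.56, 8.47 and 8.07 on vehicle and 6.94, 6.75 and 6.40 on treated arrays. The groups did not overlap, but the difference of −1.34 ± 0.26 did not pass (adjusted p = 0.063).

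Other falls were spread over regulators and membrane genes. CDK18, a kinase of the PCTAIRE group, fell by 1.47 (SE 0.25, adjusted p = 0.050), from 8.72, 8.25 and 8.11 to 6.69, 6.77 and 7.21. HSPA2, an HSP70 family member, fell by 1.19 (SE 0.17, adjusted p = 0.030), from 6.53, 6.96 and 6.58 to 5.25, 5.58 and 5.67. No other of 35 cytosolic heat shock chaperones was called, and 24 of the 35 lay above their vehicle mean. The adhesion gene VSIG1 fell by 1.38, the SNARE gene STX11 by 1.31 and the membrane protein gene LRRN1 by 1.34. MICALL1, of endosome recycling, fell by 1.20, and KLF7, a zinc finger transcription factor, by 1.08. RARG, retinoic acid receptor γ, fell by 0.92 (SE 0.15, adjusted p = 0.049), and the homeobox gene GSX2 by 0.93 (SE 0.12, adjusted p = 0.020). In all of them the groups were apart, as in all 78 called genes and 22.9% of all genes. None of the falls after TGM1 that are named here reached 4-fold.

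**Figure D4:**
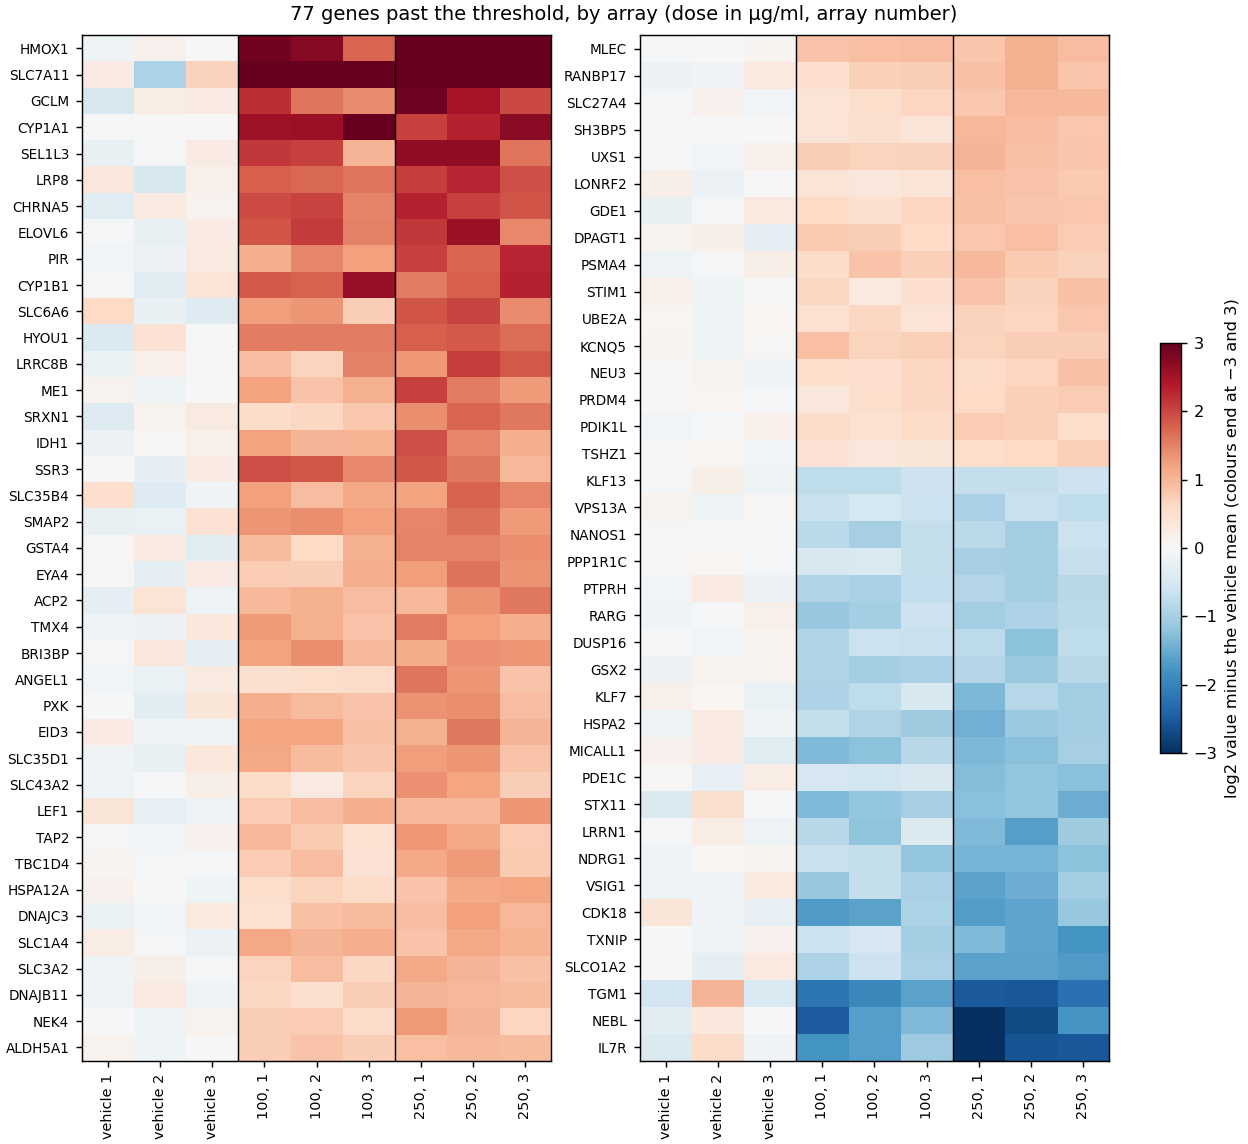
Each cell shows the log2 value of 1 of 77 called genes on 1 array minus that gene's vehicle mean, with rises in red and falls in blue and the colour scale ending at −3 and 3. Columns are the 3 vehicle arrays, then 100 µg/ml and 250 µg/ml. TGM1 on vehicle replicate 2 and SLC7A11 on the same array are the deepest colours among the vehicle columns.

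Several lists with 1 called gene or none also leaned to one side. The 44 DNA replication genes had a median difference of 0.46 and the 48 cell cycle and mitosis genes one of 0.45. In these lists 40 and 41 members lay above their vehicle mean, and 0 passed in either. At an unadjusted limma p under 0.05, 10 DNA replication genes were higher and 0 lower, and 16 cell cycle genes were higher and 1 lower. Over all genes 8.74% were higher and 7.9% lower at that p. Without vehicle replicate 2 both medians were 0.25, and without vehicle replicate 3 they were 0.72 and 0.59. Vehicle replicate 2 was the lowest array in both lists, at −0.96 and −0.69 relative to the list average over the 9 arrays. For DNA replication the other vehicle arrays were at −0.36 and −0.03 and the treated arrays at 0.09, 0.17 and −0.13, so treated replicate 3 lay below vehicle replicate 3. The proteasome list had a median of 0.50, with 33 of 38 members above their vehicle mean and PSMA4 the 1 riser. In that list vehicle replicate 1 was low, at −0.65 against −0.02 and −0.04, and the median was 0.22 without that array.

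Matrix and identity genes lay on the lower side. Of 46 collagens and laminins 41 lay below their vehicle mean, the median was −0.19 and 0 passed. In 16 of the 46 every treated array lay below every vehicle array, against 14.3% of all genes. At an unadjusted limma p under 0.05, 1 was higher and 12 lower, against 8.74% and 7.9% of all genes. COL4A4, a basement membrane collagen chain, was at −0.73 ± 0.16 (adjusted p = 0.081) and FBN2, fibrillin 2, at −1.08 ± 0.29 (0.13). Complement genes lay below in 23 of 26 with a median of −0.14, and BCL2 family genes in 16 of 20 with a median of −0.23. BCL2 was at −0.37 ± 0.18 (adjusted p = 0.36) and BAX at −0.40 ± 0.31 (0.55). Retinal pigment epithelium genes lay below in 26 of 33 with a median of −0.23 (−0.10 without vehicle replicate 3), and 0 passed. The background is 8135 of 14207 genes below their vehicle mean.

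Mitochondrial genes are of interest because the series title names mitochondrial dysfunction. Of 29 complex I subunits 0 passed and the median was 0.07, and of 31 subunits of complexes II to V 0 passed, 21 lay below their vehicle mean and the median was −0.11. In each list 1 member, higher, had an unadjusted limma p under 0.05, against 8.74% of all genes higher and 7.9% lower. These medians changed sign with single arrays left out, running from −0.18 to 0.21 and from −0.41 to 0.02. SDHC, a membrane anchor of complex II, read 4.23, 3.75 and 5.90 on vehicle and 7.17, 6.20 and 7.23 on treated arrays (2.24 ± 0.60, adjusted p = 0.13), while the catalytic subunit SDHA was at −0.19 ± 0.11 (0.42). The 64 mitochondrial ribosome genes had 0 called members and a median of 0.13, which was −0.09 without vehicle replicate 1 and reached 0.25 without treated replicate 1. The inflammatory genes CXCL8 and IL6 were at −0.02 ± 0.16 and −0.24 ± 0.14 (adjusted p = 0.97 and 0.41), and 0 of 33 NF-kB inflammatory genes passed. The vehicle means of CXCL8 and IL6, 2.84 and 2.91, lay below 3.12, the lower quartile of vehicle means over all genes. Differences of such dim genes may be compressed.

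**Figure D5:**
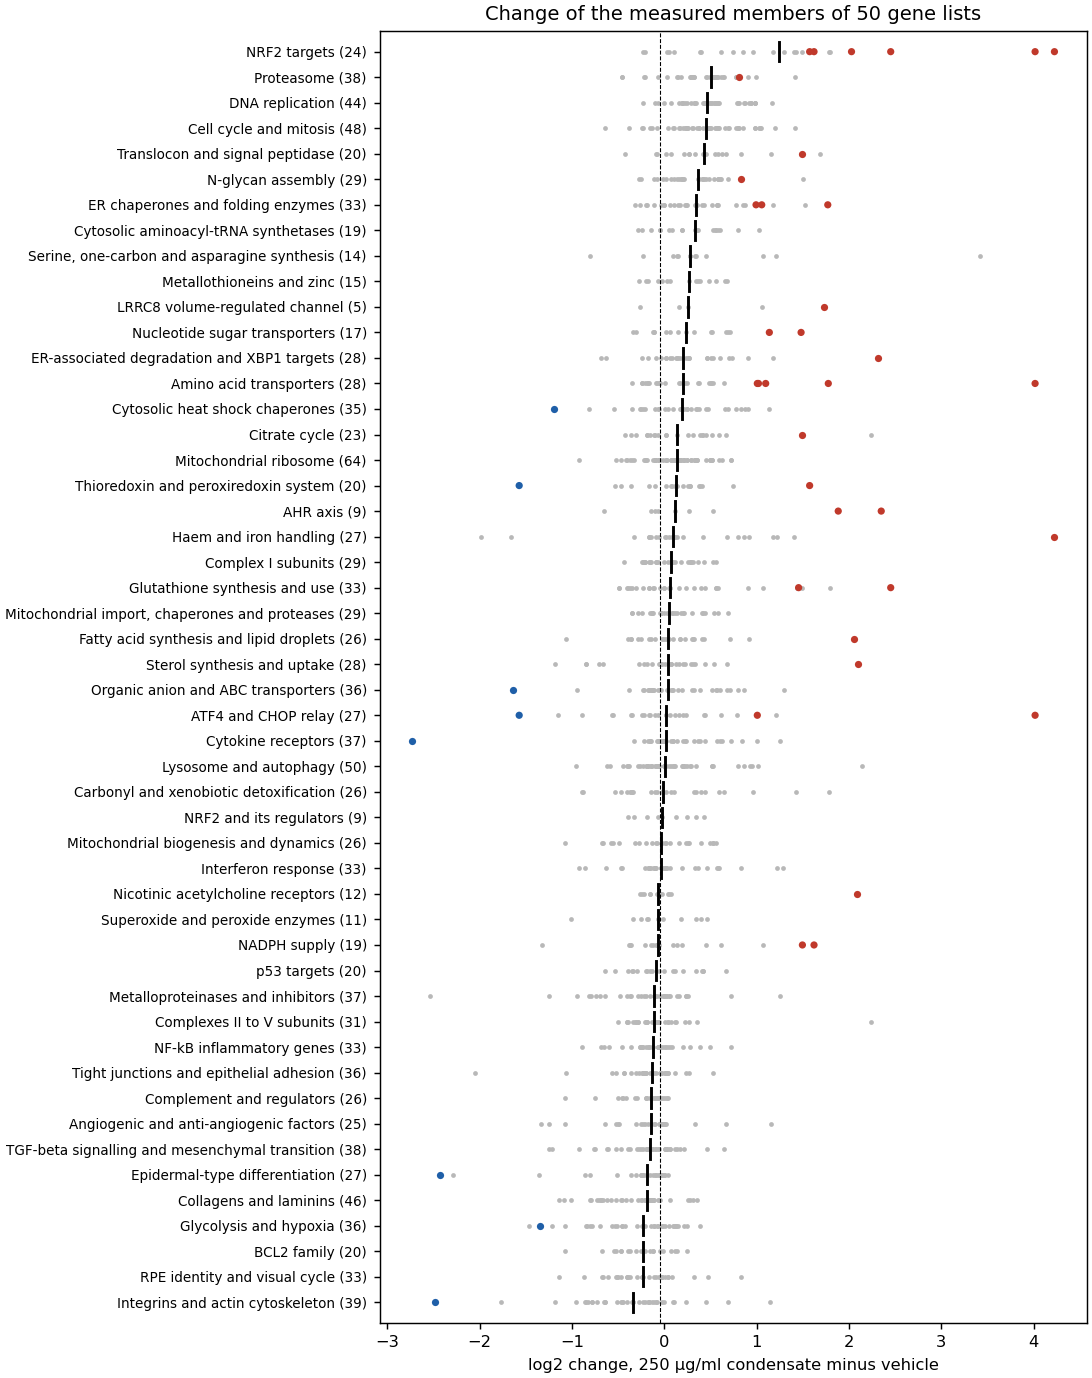
Each small point is 1 measured member of a list, placed by its log2 change (250 µg/ml minus vehicle), with called rises in red and called falls in blue. Black bars are list medians, the dashed line is the median of all genes (−0.04) and numbers in brackets count the measured members. Medians run from 1.24 for NRF2 targets to −0.34 for integrins and the actin cytoskeleton.

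Both doses were also compared with each other. In the same fit 0 genes passed between 250 and 100 µg/ml (0% of 14207), 262 had an unadjusted p under 0.05, and 0 passed under all 13 alternatives as well. With the array number as a replicate block, 467 genes had an unadjusted p under 0.05 and the smallest adjusted p was 0.45. Array weights gave 2276 such genes and a smallest adjusted p of 0.083. The replicate block also spanned the vehicle arrays, which the numbers did not pair with 250 µg/ml. A fit that paired the arrays of both doses alone was not run, and the values per gene below ignore that pairing. HMOX1 read 9.29, 9.13 and 8.12 at 100 µg/ml, below all 3 arrays at 250 µg/ml, a difference of 1.77 ± 0.29 (limma adjusted p = 1.00). PIR read 4.96, 5.34 and 5.10 and SRXN1 8.21, 8.28 and 8.46 at the lower dose, again below all arrays of the higher dose. In TXNIP the lower dose lay between vehicle and 250 µg/ml, at 9.76, 9.90 and 9.37, and in PDE1C at 8.10, 8.04 and 8.13. CYP1A1 differed in order, reading 5.21, 5.24 and 5.74 at 100 µg/ml, so the arrays of both doses overlapped and the mean was 0.38 lower at 250 µg/ml (SE 0.19, adjusted p = 1.00). A difference between doses that misses the threshold does not show that both doses act alike.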

How the data were processed

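The labels place 3 arrays in each group, and 3 arrays per group limit the precision. The authors deposited log2 values, 1 for each transcript-level probe set on Affymetrix exon arrays. RMA, Partek and genome build hg18 are named per the submitters' processing notes, with versions and settings not given in the sources used here. Of 17629 probe sets 2405 name several genes and 846 none. Symbols were updated by gene number through RefSeq (GRCh38.p14), which lacked 28 numbers. Where a gene had several probe sets (169 genes), the brightest on average over 9 arrays was kept. NQO1, SOD2 and HSP90B1 were not measured alone.

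limma 3.58.1 in R 4.3.3 was fitted on all 9 arrays with 1 mean per group, empirical Bayes moderation (6 residual and 2.47 prior degrees of freedom) and Benjamini-Hochberg adjustment over 14207 genes, with a threshold of 0.05. In simulated data with 200 of 14207 genes changed, this fit recovered 67% of 2-fold and 99% of 4-fold changes and called 14 unchanged genes. The simulated noise was independent between arrays and equally wide in each group, with no outlying array. These rates therefore need not hold for the real arrays. The comparison and the 50 lists were chosen with earlier results of these data known. Genes named are those past the threshold, up to 4 further members per list by smallest p, and 24 fixed genes. The solute carrier family, AMTN, HEPH, CP and the list of largest differences were picked once their values were known. For 1 fallen gene the result is not reported here. Deviations of same-numbered vehicle and 250 µg/ml arrays correlated at 0.23, −0.07 and −0.09, so the numbers were not taken to pair them. Between 100 and 250 µg/ml these correlations were 0.60, 0.44 and 0.68, so the numbers were taken to pair both doses, from the data and not from the labels. The reported dose comparison did not use this pairing. Nor did the fit behind the called genes, so its 6 residual degrees of freedom may be overstated. Alternatives changed the normalization, low values, probe sets, moderation, array weights, the arrays fitted, the replicate block and each array left out.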

Additional observations from a re-analysis of the deposited data

Results flagged for a closer look

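Probe sets outside the comparison, which name several genes or none, were fitted together with all others over 17629 probe sets. Of the 2405 that name several genes 4 passed an adjusted p of 0.05 (limma), 3 higher and 1 lower at 250 µg/ml, with a largest rise of 1.06 log2 units. Of the 846 that name no gene 6 passed, 2 higher and 4 lower, with differences up to 1.30. In the same fit 61 of the 14378 probe sets with 1 gene passed.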

How the results depend on the processing

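Rises and falls, 55 and 23 as reported, were 1 and 0 on the 6 arrays alone, 91 and 39 without dim genes, 97 and 73 with trend and robust moderation, and 150 and 84 with array weights. Falls numbered 64 after quantile normalization and 71 after centring. With single arrays left out, rises ran from 3 to 223 and falls from 1 to 73. With the replicate block there were 78 rises and 44 falls, 56 of them among the 78 reported. Numbers paired the arrays of both doses but not those of vehicle and 250 µg/ml, by the correlation of their deviations. Of the genes fixed by name 3 changed sign: ATF4, −0.10 as reported, ran from −0.37 to 0.12 with single vehicle arrays left out and was at 0.0039 without treated replicate 2. XBP1 ran from −0.085 without vehicle replicate 1 to 0.64 without vehicle replicate 2. CXCL8 was at 0.090 after quantile normalization, −0.11, 0.037 and 0.021 without vehicle replicates 1, 2 and 3, and 0.022 without treated replicate 2. The cause was not tested. The fit on 6 arrays has fewer arrays behind its spread. The reported fit counted the arrays of both doses as independent, though same-numbered ones had correlated deviations (0.60, 0.44 and 0.68). Its degrees of freedom may therefore be overstated, and its adjusted p-values for 250 µg/ml against vehicle too small. Testing every probe set with 1 gene gave 58 rises and 27 falls. RPE65, IL6 and CXCL8 lay below the limit of the dim gene setting and gave no value there. Signal near the bottom of the scale limits what can be said of CYP1A1, RPE65, CXCL8 and IL6.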

Other observations

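Among the 311 genes that differed at least 2-fold without passing the threshold, 156 higher and 155 lower, several showed large separations. These genes were chosen after their values were seen. NPPB, which encodes the natriuretic peptide BNP, read 7.98, 11.54 and 7.87 on vehicle and 4.01, 4.77 and 6.60 on treated arrays, with group means of 9.13 and 5.12 (SE of the difference 1.04, limma adjusted p = 0.12). It was the largest difference among the genes that did not pass, with vehicle replicate 2 high and treated replicate 3 nearest to vehicle. GPAT3, which starts triglyceride synthesis, read 3.54, 3.10 and 3.71 against 7.08, 7.14 and 5.26 (3.04 ± 0.63, adjusted p = 0.070). Treated replicate 3 again lay nearest to vehicle.

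The transcription factor genes ETV1 and ETV5 and the ERK phosphatase gene DUSP6 were higher on every treated array than on any vehicle array, without passing. ETV5 read 5.71, 4.09 and 5.05 against 6.90, 6.88 and 6.55 (1.83 ± 0.35, limma adjusted p = 0.059). DUSP6 read 3.66, 3.48 and 4.05 against 5.03, 5.58 and 5.31 (1.57 ± 0.36, limma adjusted p = 0.088). ETV1 read 7.09, 5.01 and 7.30 against 8.36, 8.52 and 8.14, with vehicle replicate 2 low. On the lower side, the chemokine receptor gene CXCR4 read 6.12, 6.40 and 6.72 against 5.08, 4.38 and 4.17 (−1.87 ± 0.33, limma adjusted p = 0.052). TLL1, a protease of the BMP1 family, read 6.75, 7.03 and 6.89 against 4.53, 4.70 and 5.25 (−2.06 ± 0.35, limma adjusted p = 0.0504). In both the arrays of each group stood apart, as in 22.9% of all genes.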
